A study of Mus musculus with 18 samples.

Results

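The genes Star, Cyp11a1, Fdx1 and Scarb1 carry cholesterol into a steroid-making cell and cut its side chain, and their messenger RNA was followed here in mouse ovaries exposed to excess luteinizing hormone (LH). The members were all probe sets of the 2 oligonucleotide chip types that the platform annotation assigns to these 4 genes. The 4 genes were among 6137 named on the chips. They had 4 probe sets among 13179, 1 for each gene, and all 4 lay on chip A and 0 on chip B. All 4 passed the filter on low intensity, which 6408 probe sets passed in all.

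The series held 18 arrays, 1 of chip A and 1 of chip B for each of 9 conditions, so no condition had a replicate array. The transgenic ovaries came from LHCTP mice, which hypersecrete LH. They were CF-1 ovaries at 2 months (cystic), CF-1xC57BL/6 F1 hybrid ovaries at 2 months (cystic), a granulosa cell tumour of a CF-1 ovary at 5 months, a hybrid ovary with luteoma at 5 months, and a CF-1 ovary with luteoma at 5 months from a mouse given human chorionic gonadotropin (hCG). The wild-type ovaries were CF-1 and hybrid, each at 2 and at 5 months, and none of them was given hCG, so hCG has no wild-type control among these samples. The LHCTP transgene is known to encode the LH beta subunit fused to the C-terminal peptide of the hCG beta subunit, expressed in the pituitary. The labels do not say how many animals gave each sample.

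LH acts on theca, luteal and mature granulosa cells through cyclic AMP, and drives the ovary to make steroids from cholesterol. Scarb1 is the cell-surface receptor that takes up cholesterol esters from high-density lipoprotein. Star moves cholesterol to the inner mitochondrial membrane, which is the acutely regulated step. There Cyp11a1 cleaves the side chain to give pregnenolone, the precursor of all steroid hormones, and Fdx1 is the ferredoxin that hands it the electrons. Luteal cells are known for high levels of all of these, and granulosa cells of growing follicles for little Star.

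Promoter sequence from RefSeq (GRCm38.p6) was found for 2 of the 4 genes, Cyp11a1 and Fdx1, whose intensities ran together over the 9 conditions. It is shown to set the upstream DNA of this pair side by side, in the direction of transcription, with TCAAGG or its reverse complement CCTTGA in capitals. These letters begin a site that Nr5a1, the steroidogenic factor, is known to bind, and they were picked after the sequences had been seen. The Fdx1 window is chr9:51963553-51963852 on the minus strand, and the Cyp11a1 window is chr9:58014702-58015001 on the plus strand.

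Fdx1: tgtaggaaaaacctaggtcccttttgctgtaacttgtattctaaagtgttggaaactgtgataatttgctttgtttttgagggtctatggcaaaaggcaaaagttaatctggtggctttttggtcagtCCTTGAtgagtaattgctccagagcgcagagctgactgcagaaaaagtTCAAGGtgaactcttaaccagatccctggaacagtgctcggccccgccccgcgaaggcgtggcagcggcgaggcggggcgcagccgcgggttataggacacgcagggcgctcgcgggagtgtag
Cyp11a1: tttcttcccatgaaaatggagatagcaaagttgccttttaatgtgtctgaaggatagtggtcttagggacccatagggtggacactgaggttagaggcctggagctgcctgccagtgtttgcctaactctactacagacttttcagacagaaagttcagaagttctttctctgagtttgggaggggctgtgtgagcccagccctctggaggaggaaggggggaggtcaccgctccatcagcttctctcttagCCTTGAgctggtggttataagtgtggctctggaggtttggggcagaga

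In the Fdx1 window the letters stand at bases 129 to 134 (CCTTGA) and 177 to 182 (TCAAGG), and in the Cyp11a1 window at bases 253 to 258 (CCTTGA). Another Cyp11a1 window in the table, at chr9:57997774-57998073, does not hold them. Of 32851 promoter windows of this length, 14.4% hold TCAAGG on either strand. Other motifs were searched on both strands in all 3 windows. The steroidogenic factor half-site AAGGNCA was found in 0 of the 3, against 20.3% of all windows. AGATAA, a form of the GATA factor motif, was found in 0, against 11.2%, and other forms of that motif were not searched. The cyclic AMP response element TGACGTCA was found in 0, against 1.79%, and its core TGACG, which lies within it, in 1, against 20.8%. The GC box GGGCGG was found in 2, against 35.7%.

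The largest difference among the 4 genes was the fall of Star in the granulosa cell tumour, to a level under the detection limit, while Cyp11a1, Fdx1 and Scarb1 remained bright there. In the other 8 conditions all 4 genes were among the brightest of the chip. Relative to bright controls on the same array, the cystic ovaries and the hybrid luteoma read lower for Star and higher for Cyp11a1 and Scarb1 than the 4 wild-type ovaries. The Star difference was near that of the median probe set. With arrays scaled to 1 such control, CreX, the median log2 difference of cystic ovaries from wild type was -0.26. By that scaling Star differed by -0.24, Cyp11a1 by 0.19 and Scarb1 by 0.42, and none passed limma's threshold. In bulk ovary, fewer cells of a type and less RNA per cell cannot be told apart.

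Levels are given both as the deposited intensity and as a scaled one, since for these genes the choice matters. Scaling brought each array to a common trimmed mean, with factors from 0.703 for the hybrid wild-type ovary at 5 months to 1.36 for the CF-1 wild-type ovary at 5 months. The trimmed means of chip A differed by up to 1.94-fold between arrays, but the level of the very brightest probe sets by up to 1.45-fold. Outside the tumour the members stood at 30.9% to 95.8% of the highest intensity of their array. There Fdx1 read above that percentile and Cyp11a1 on both sides of it. Star, at ranks 68 to 146 of its array, and Scarb1, at ranks 47 to 200, read below it. Fold differences between bright readings may be compressed, which was not tested for any member.

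Scarb1, the receptor for cholesterol uptake, had deposited intensities of 19231.9 in the CF-1 cystic, 19678 in the hybrid cystic, 11503.1 in the tumour, 17161.3 in the hybrid luteoma and 12625.2 in the hCG luteoma ovary. The wild-type values were 15870.2 in CF-1 and 14976.1 in hybrid ovaries at 2 months, and 15734.3 in CF-1 and 13435.8 in hybrid ovaries at 5 months. As deposited, both cystic ovaries and the hybrid luteoma thus lay above all wild types, and the tumour and the hCG luteoma below them. Scaled, the transgenic values were 18022, 26047, 12525, 18191 and 13474 in the same order of conditions, against 15379, 12600, 21406 and 9442 in the wild types, and the groups overlapped.

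Star, the cholesterol carrier, had deposited intensities of 14041.6 in the CF-1 cystic, 13227.6 in the hybrid cystic, 172.7 in the tumour, 11423.2 in the hybrid luteoma and 20762.3 in the hCG luteoma ovary. The wild-type values were 18023.4 in CF-1 and 18751.8 in hybrid ovaries at 2 months, and 13855.4 in CF-1 and 16026.7 in hybrid ovaries at 5 months. The tumour stood far below every other array, and the hCG luteoma was the highest of the 9. Scaled, the transgenic values were 13159, 17509, 188, 12108 and 22157 in the same order of conditions, against 17465, 15776, 18850 and 11263 in the wild types.

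The scaled tumour reading of Star was 1.02 times the floor of 183.8 units and under the detection limit of 367.6 units, and ranked 4257 among the probe sets of that array. The CreX 3-prime control read 22997.8 deposited units on the same array, within its range over the other arrays. In the other 8 conditions Star read between 11263 and 22157 scaled units. Taking the detection limit as the upper bound for the tumour, Star was at least 51.3-fold lower in the tumour than in the CF-1 wild-type ovary of the same age. It was at least 30.6-fold lower than in the next lowest ovary, the hybrid wild type at 5 months.

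Cyp11a1, the side-chain cleavage enzyme, had deposited intensities of 21210.4 in the CF-1 cystic, 22430.3 in the hybrid cystic, 9345.1 in the tumour, 22058.8 in the hybrid luteoma and 30380.2 in the hCG luteoma ovary. The wild-type values were 21253.6 in CF-1 and 20947.9 in hybrid ovaries at 2 months, and 17442.4 in CF-1 and 19272.9 in hybrid ovaries at 5 months. The tumour was the lowest of the 9 and the hCG luteoma the highest, on the deposited and on the scaled intensity. Scaled, the transgenic values were 19877, 29690, 10175, 23382 and 32422 in the same order of conditions, against 20595, 17624, 23730 and 13545 in the wild types.

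Fdx1, the electron donor of Cyp11a1, had deposited intensities of 24021.2 in the CF-1 cystic, 25409.8 in the hybrid cystic, 11596.5 in the tumour, 20083 in the hybrid luteoma and 35718.6 in the hCG luteoma ovary. The wild-type values were 24424.7 in CF-1 and 23532.6 in hybrid ovaries at 2 months, and 22788.1 in CF-1 and 23269.4 in hybrid ovaries at 5 months. The tumour was again the lowest and the hCG luteoma the highest. Scaled, the transgenic values were 22511, 33634, 12627, 21288 and 38119 in the same order of conditions, against 23668, 19798, 31002 and 16353 in the wild types.

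**Figure D1:**
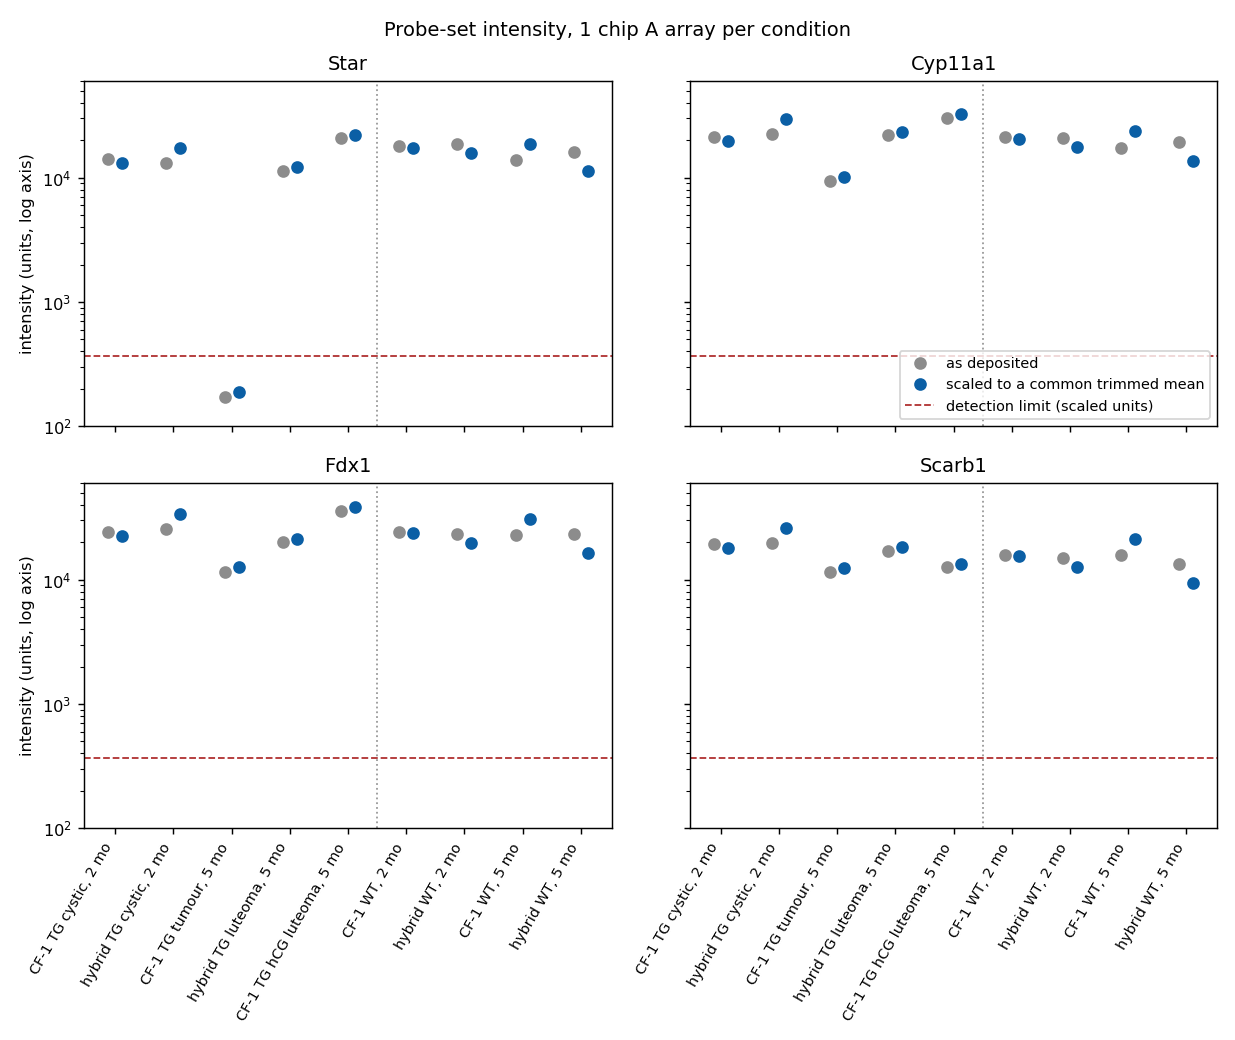
Intensity of each gene's probe set (log axis) in 5 transgenic conditions, left of the dotted line, and 4 wild-type conditions, right of it; grey points are deposited and blue points scaled values of 1 chip A array each, and the dashed line is the detection limit. Star in the tumour, at 188 scaled and 172.7 deposited units, is the only gene and condition under the limit of 367.6 units.

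The spread among wild types showed what scaling did. Fdx1 averaged 23504 ± 687 units in the wild-type ovaries as deposited, and 22705 ± 6287 units after scaling (SD, n = 4 conditions). Over the 8 arrays without the tumour, the scaled intensity had a Pearson correlation with the log2 scale factor of 0.90 for Scarb1, 0.61 for Star, 0.82 for Cyp11a1 and 0.82 for Fdx1. As deposited, these were 0.43, -0.39, 0.06 and 0.11. The correlations are descriptions over arrays that share this factor across genes. A scaled value is the deposited one times the factor, so a steady deposited level gives a positive correlation by construction.

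Bright control probe sets were read in the same way. CreX is a bacteriophage gene whose labelled transcript is commonly added to the hybridisation mix of such chips in a fixed amount, though the labels do not say so for these arrays. Its 3-prime probe set ranged from 20026.2 to 30535.1 units as deposited and, after scaling, from 15923 to 32587 units, a 2.05-fold range. Gapdh, a glycolytic enzyme used as a control on these chips, ranged 1.22-fold as deposited and 1.93-fold scaled at its 3-prime probe set, but 1.60-fold and 1.65-fold at its 5-prime probe set. On the hCG luteoma array CreX-3 had its highest deposited value, as did Star, Cyp11a1 and Fdx1, and that array also had the highest top intensity among chip A arrays, 40882.5 units. The 3-prime over 5-prime ratio of deposited Gapdh, a measure of RNA and labelling quality, was 1.35 on that array, against 0.782 to 0.985 on the other 8 chip A arrays. Its part in the hCG luteoma values was not tested.

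**Figure D2:**
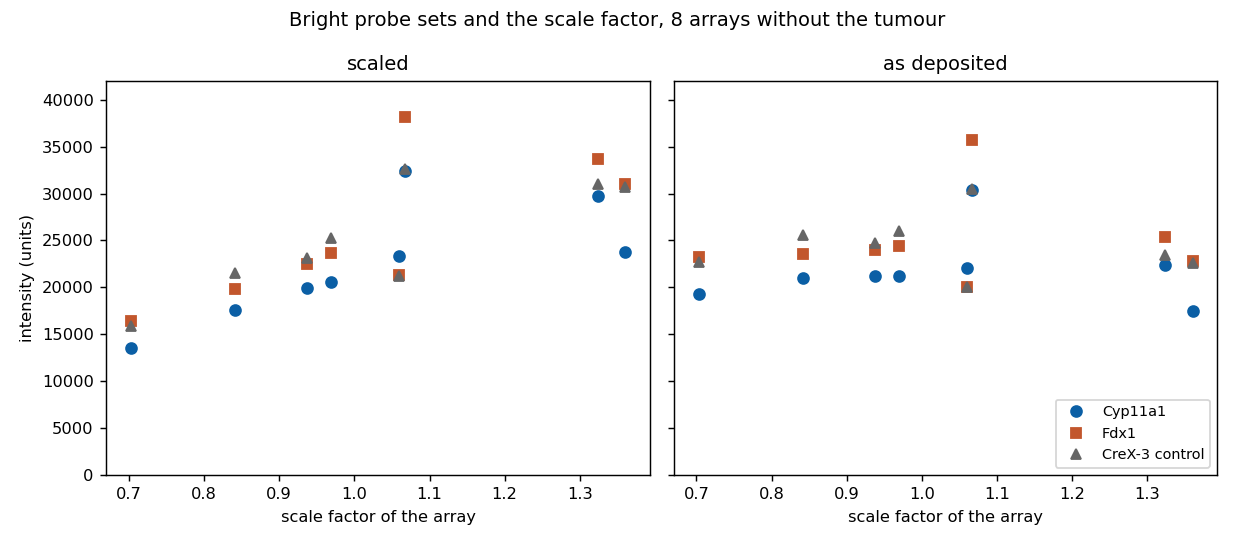
Intensity of Cyp11a1, Fdx1 and the CreX 3-prime control against the scale factor of the array, scaled on the left and as deposited on the right, 1 point for each of 8 arrays without the tumour. The scaled points climb with the factor while the deposited ones do not, with r of 0.82 against 0.06 for Cyp11a1 and 0.82 against 0.11 for Fdx1. Scaled values hold the factor itself, so steady deposited levels climb with it by construction.

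Each gene was also set against the geometric mean of the 2 CreX probe sets of its own array, a measure chosen after the data were seen that needs no scaling. Star was at 57.4% of CreX in the CF-1 cystic, 60.3% in the hybrid cystic, 0.768% in the tumour, 59.0% in the hybrid luteoma and 73.1% in the hCG luteoma ovary, against 63.2% to 73.7% in the wild types. Cyp11a1 was at 86.7%, 102%, 41.6%, 114% and 107% in the same order, against 79.6% to 85.2% in the wild types. The cystic and luteoma ovaries lay outside the wild-type range for both genes, below it for Star and above it for Cyp11a1, except that the hCG luteoma lay within it for Star.

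Fdx1 was at 98.2%, 116%, 51.6%, 104% and 126% of CreX in the same order, against 92.4% to 104% in the wild types. Scarb1 was at 78.6%, 89.7%, 51.2%, 88.6% and 44.5%, against 58.8% to 71.8% in the wild types. For Fdx1 the groups overlapped, and for Scarb1 the cystic and hybrid luteoma ovaries lay above the wild types while the tumour and, by this control, the hCG luteoma lay below them. In the tumour Cyp11a1, Fdx1 and Scarb1 were each lower than on all wild-type arrays by this measure.

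Over the cystic ovaries and the hybrid luteoma, Star averaged 58.9% ± 1.45 of CreX (SD, n = 3), against 69.6% ± 4.49 in wild types (SD, n = 4). Cyp11a1 averaged 101% ± 13.6 against 82.6% ± 2.38, Scarb1 85.7% ± 6.09 against 63.1% ± 5.99, and Fdx1 106% ± 9.02 against 98.8% ± 5.53. With these 3 transgenic arrays, 3 of the 4 members did not overlap the wild types, where 4.17% of 96 comparably bright probe sets did not. With the hCG luteoma added, Cyp11a1 alone remained apart (1 of 4, against 1.04%), and with all 5 transgenic arrays 0 of 4 did, against 0% of the 96. Relative to the geometric mean of 3 Gapdh probe sets the counts of members apart were also 3, 1 and 0 of 4, on the same sides, with 6.25%, 1.04% and 0% of the 96. The hCG luteoma stood elsewhere by that control. Star was at 101% of Gapdh there, against 68.7% to 78.3% in the wild types, and Scarb1 at 61.3%, against 57.6% to 78.8%, so that Star lay above and Scarb1 within the wild-type range. The members belong to the 96, whose brightness limit was set by the dimmest of them. Of the probe sets apart with the 3 arrays, members were thus 3 of 4 by CreX and 3 of 6 by Gapdh. With the hCG luteoma added, Cyp11a1 was itself the only 1 of the 96 apart by either control.

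**Figure D3:**
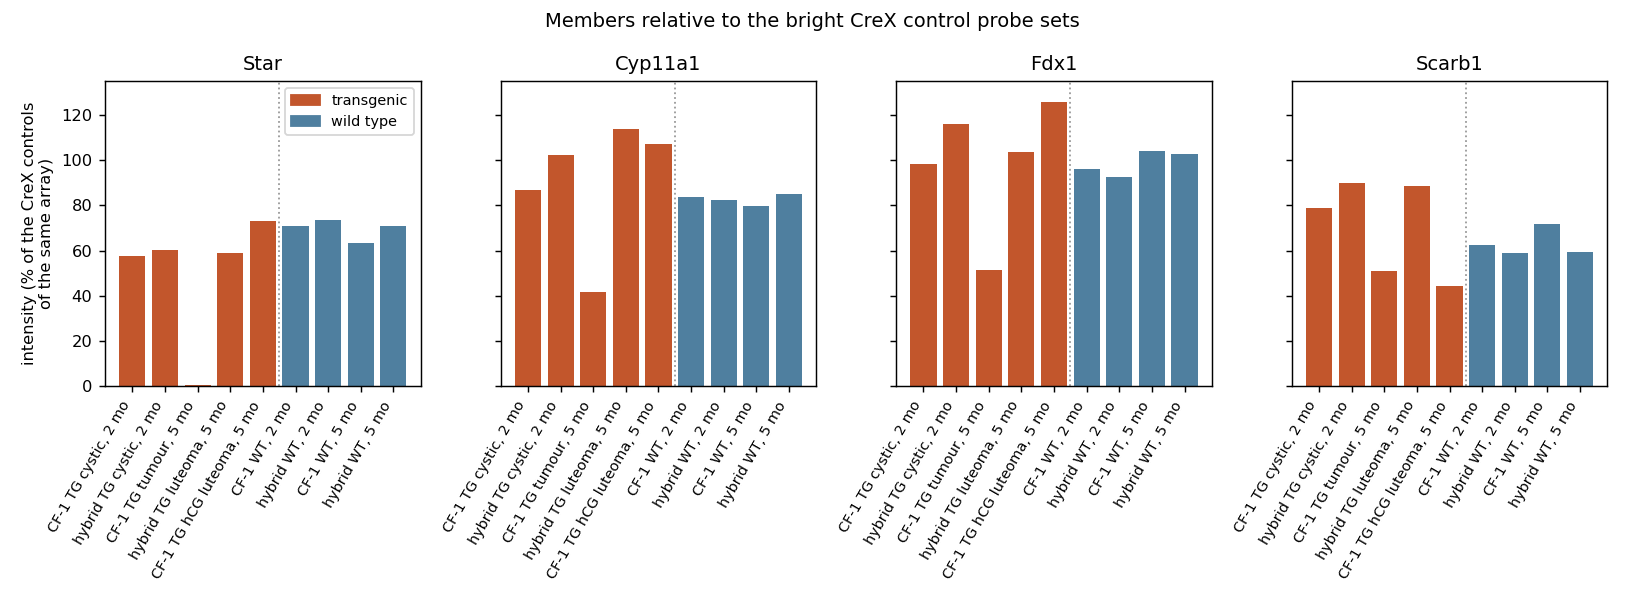
Deposited intensity of each gene as a percentage of the geometric mean of the 2 CreX controls on the same array, 1 bar per array, with 5 transgenic arrays left of the dotted line and 4 wild-type arrays right of it. Star in the tumour stands at 0.768%, and Cyp11a1 lies above the wild types on the 4 other transgenic arrays.

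Whether the pathology classes differed was tested with limma on scaled log2 intensities over all 6408 probe sets, with the wild types (4 arrays), the cystic ovaries (2), the luteomas (2) and the tumour (1) as classes. Star fell in the tumour relative to wild type (limma adjusted p = 0.000625). As the tumour reading was under the detection limit, the size is a bound, at least 42.3-fold lower than the wild-type mean of 15552 scaled units (geometric mean, n = 4). This was 1 of the 4 members, where 1.5% of all probe sets passed in either direction, 0.968% lower and 0.531% higher. Cyp11a1 differed by -0.86 (adjusted p = 0.321), Fdx1 by -0.81 (0.414) and Scarb1 by -0.17 (0.869), all from limma and none past the threshold of 0.05. The lone tumour array is assumed to vary like the other classes, and luteoma and cystic classes mix strains or treatments. Over the 17 alternatives run for this contrast, limma's adjusted p for Star ran between 2.5e-11 and 0.00847.

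Against the luteomas, Star also fell in the tumour, by at least 44.6-fold from their geometric mean (limma adjusted p = 0.000616), again 1 of 4 members, with 1.86% of all probe sets past the threshold. Cyp11a1 differed by -1.44 (limma adjusted p = 0.139), Fdx1 by -1.17 (0.282) and Scarb1 by -0.32 (0.791). The Cyp11a1 difference passed limma's threshold under quantile normalization only among the alternatives run, with adjusted p = 0.0461.

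In the luteomas against wild type 0 of 4 members passed limma's threshold, as did 0.109% of all probe sets. The differences were 0.07 for Star, 0.58 for Cyp11a1, 0.37 for Fdx1 and 0.15 for Scarb1 on the log2 scale, with adjusted p from 0.640 to 0.966. In the cystic ovaries 0 of 4 passed as well, with 0.0624% of all probe sets. There the differences were -0.04 for Star, 0.39 for Cyp11a1, 0.32 for Fdx1 and 0.62 for Scarb1, with adjusted p from 0.886 to 0.994.

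**Figure D4:**
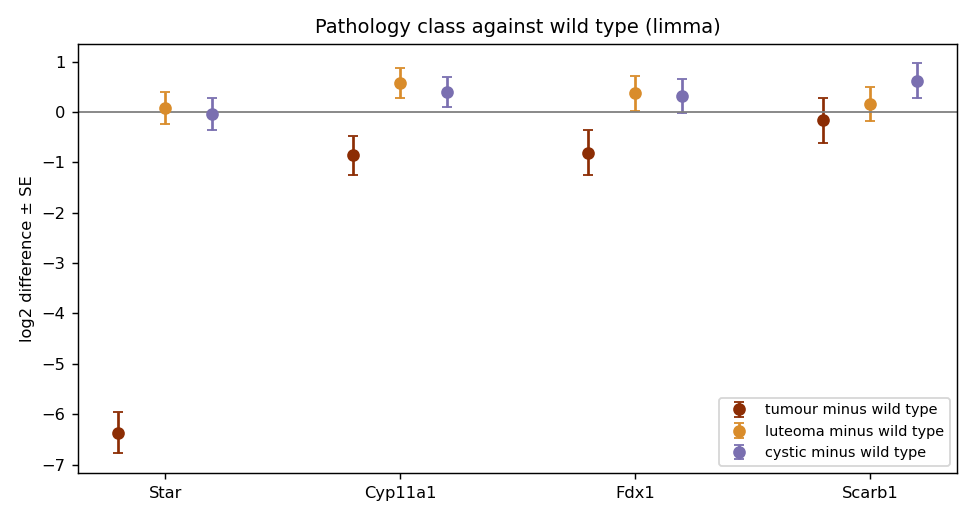
Fitted log2 difference (points) with its standard error (bars) of the tumour, the luteomas and the cystic ovaries against wild type, for each gene. The Star tumour point, at -6.37, lies far below the others, which lie between -0.86 and 0.62. Its height rests on a reading of 1.02 times the intensity floor and under the detection limit, so only a bound on its size is given in the text.

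Genotype was tested on the 8 untreated arrays with strain and age as additive terms, and limma called 0 of 4 members and 0% of the 6408 probe sets, 642 of which had an unadjusted p under 0.05. Star differed by -1.70 between transgenic and wild-type ovaries (SE 1.16, limma adjusted p = 0.693), and without the tumour array by -0.15. Cyp11a1 differed by 0.07, Fdx1 by -0.06 and Scarb1 by 0.36, with adjusted p from 0.777 to 0.980. For age, 5 against 2 months, Star differed by -1.76, Cyp11a1 by -0.37, Fdx1 by -0.35 and Scarb1 by -0.25, and 0 of 4 passed, against 0.0156% of all probe sets. The untreated 5-month arrays include the lone tumour, so these age values also hold its readings. In the wild types scaled Star read 17465 units at 2 and 18850 at 5 months in CF-1 ovaries, and 15776 and 11263 in hybrid ovaries. For strain 0 of 4 passed as well, against 0.0312%.

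The interaction of genotype with strain, hybrid against CF-1, was 1.41 for Cyp11a1 (unadjusted p = 0.0172), 1.26 for Fdx1 (0.0357), 1.27 for Scarb1 (0.0268) and 3.66 for Star (0.118), each with a limma adjusted p of 0.854. With intensities scaled to the CreX controls these were 0.81, 0.66, 0.67 and 3.06. The median over all probe sets was -0.04 in the first fit and -0.53 in the second. None of these passed the threshold. In the first fit 0% of all probe sets passed it, and with CreX scaling 3 of 6408 did. At 5 months the untreated transgenic CF-1 ovary was the tumour and the hybrid one the luteoma. Strain and pathology therefore cannot be told apart in these interactions.

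Each transgenic ovary was also compared with the wild type of its strain and age, 1 array on each side and without a test. By a size rule of at least 3-fold on scaled intensity, 1 of 4 members was lower in the tumour, Star, where 2.95% of all probe sets were lower and 1.47% higher. In the other 4 comparisons 0 of 4 members passed 3-fold in either direction. There 0.702% of all probe sets were higher and 0.531% lower in the CF-1 cystic, 1.12% and 1.11% in the hybrid cystic, 2.14% and 1.7% in the hybrid luteoma, and 1.89% and 1.75% in the hCG luteoma ovary. In the tumour, Cyp11a1 was 2.33-fold lower and Fdx1 2.46-fold lower scaled, and 1.87-fold and 1.97-fold lower as deposited. Scarb1 was 1.71-fold lower scaled and 1.37-fold as deposited.

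In the hybrid cystic ovary Scarb1 was 2.07-fold higher than in the hybrid wild type scaled, and 1.31-fold higher as deposited. In the hybrid luteoma Scarb1 was 1.93-fold higher scaled and 1.28-fold higher as deposited. In the hCG luteoma it was 1.59-fold lower scaled and 1.25-fold lower as deposited. The direction of each Scarb1 difference was thus kept by both measures.

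Ratios between 2 members on the same array do not depend on scaling, although they show only that 2 genes changed unequally. Star over Cyp11a1 was 0.662 in the CF-1 cystic, 0.590 in the hybrid cystic, 0.0185 in the tumour, 0.518 in the hybrid luteoma and 0.683 in the hCG luteoma ovary, against 0.794 to 0.895 in the wild types. Star over Fdx1 was 0.585, 0.521, 0.0149, 0.569 and 0.581 in the same order, against 0.608 to 0.797 in the wild types. For both ratios all 5 transgenic ovaries lay below all 4 wild types, the tumour by far the lowest.

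These were 2 of the 6 pairs of members, where 1.95% of 4560 pairs of bright chip A probe sets did not overlap. Without the tumour they were 2 of 6, against 2.87%. Without the hCG luteoma Star over Scarb1 and Fdx1 over Scarb1 also separated, 4 of 6 against 4.21%, and without both arrays it was also 4 of 6, against 6.43%. Star over Scarb1 was 0.730 in the CF-1 cystic, 0.672 in the hybrid cystic, 0.0150 in the tumour and 0.666 in the hybrid luteoma, and 1.64 in the hCG luteoma, against 0.881 to 1.25 in the wild types. The hCG luteoma was therefore the only transgenic ovary above the wild types by that ratio.

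Of the 95 other bright probe sets, 15 (15.8%) were higher relative to Star on all 5 transgenic arrays than on any wild-type array, and 0 were lower. Over all pairs of bright probe sets, 1.95% did not overlap in either direction. Star was under the detection limit in the tumour, so a partner could be lower on all 5 arrays only by falling even further there. The 0 was thus nearly fixed in advance, and the counts were not made without the tumour. For Cyp11a1 these counts were 0 and 2, for Fdx1 0 and 1, and for Scarb1 0 and 0.

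**Figure D5:**
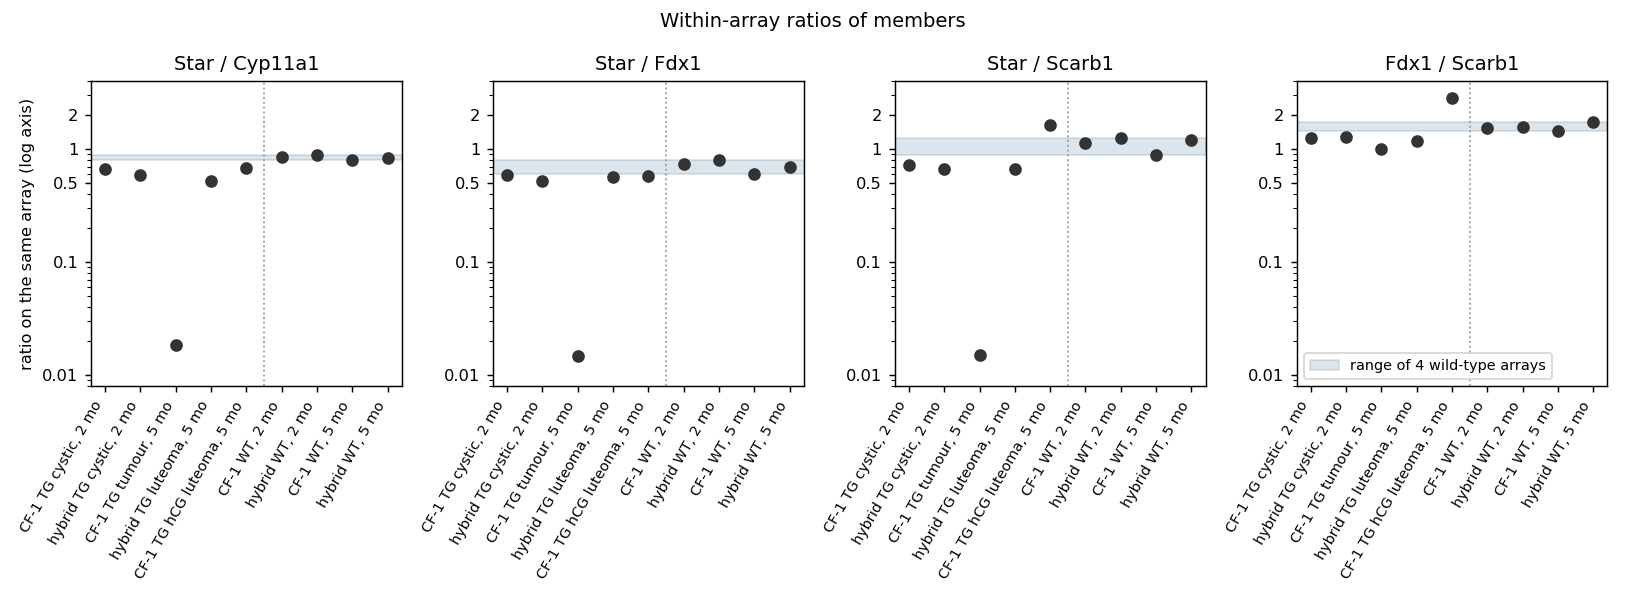
Ratio of deposited intensities of 2 genes on the same array (log axis), 1 point per array, with 5 transgenic arrays left of the dotted line, 4 wild-type arrays right of it and the wild-type range shaded. Star over Cyp11a1 and Star over Fdx1 lie below the shaded range on all 5 transgenic arrays, with the tumour at 0.0185 and 0.0149.

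The genes whose log2 levels ran most like each member over the 9 conditions were named by Pearson's r, as a description over arrays that share their scaling. For Star these were Anxa2 (0.994, and 0.981 for its chip B probe set), a calcium-dependent membrane-binding protein, Me1 (0.993), the cytosolic malic enzyme, Ptgfr (0.985), the receptor for prostaglandin F2alpha, and Acot9 (0.977), a mitochondrial acyl-CoA thioesterase. Ptgfr, which is high in luteal cells, read 217 units in the tumour, under the detection limit, against 7675 to 15874 units elsewhere. Without the tumour the leading genes for Star were Clu (0.945) and Rpl23 (0.927), and Me1, Ptgfr and Acot9 were not among its 5 nearest.

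Cyp11a1 ran most like Idh1 (0.972), the cytosolic isocitrate dehydrogenase, Fdx1 (0.962) and Gpx3 (0.958), a secreted glutathione peroxidase. Fdx1 ran most like Gpx3 (0.974), Idh1 (0.972) and Cyp11a1 (0.962). Scarb1 had looser company, led by Eef2k (0.888) and Ly6e (0.885). Without the tumour, bright genes of general function such as Rps18 for Cyp11a1 (0.977) and Eef1a1 for Fdx1 (0.991) were among the nearest.

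Other genes of the route are given from lists of known function. Of 7 tested steroid enzymes beyond side-chain cleavage, 1 was higher and 0 lower in the tumour against wild type by limma, with a median log2 difference of 0.18 beside 0 over all probe sets. The one was Hsd17b1, which converts estrone to estradiol, with a difference of 1.72 (limma adjusted p = 0.0188). Cyp17a1, the androgen-forming enzyme of theca cells, differed by -1.56 (limma adjusted p = 0.0673). Hsd3b1, which makes progesterone from pregnenolone, read 1150 units in the tumour, against 1664 to 39329 units in the other 8 conditions.

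Of 13 tested genes of cholesterol uptake, storage and transport, 0 passed in either direction, with a median of -0.12. Scp2, a sterol carrier, differed by -1.33 and Lrp1, a lipoprotein receptor, by 1.05. Lipe, the hormone-sensitive lipase that frees stored cholesterol, read 234 units in the tumour, under the detection limit, against 271 to 1640 units elsewhere. Of 8 cholesterol synthesis genes, 0 were higher and 2 lower, with a median of -1.58. Hmgcs1, an early enzyme of the mevalonate route, fell by 2.17 on the log2 scale (limma adjusted p = 0.0135) in the tumour. Idi1, the isopentenyl diphosphate isomerase, fell too (limma adjusted p = 0.00858), to 349 units, under the detection limit, at least 7.95-fold lower than in wild types.

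Of 19 listed genes of LH receptor signalling and of factors acting on steroid genes, 15 were on the chips and 11 were tested. The gene of the LH receptor itself was not among those tested. Of the 11, 0 passed in either direction, with a median of 0.23. Nr5a1 differed by 0.45, Nr5a2, its close relative, by 0.63, and Gata4, another activator of the Star promoter, by 1.10. Prkaca, the catalytic subunit of protein kinase A, differed by -1.01 (limma adjusted p = 0.154).

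Cell type marker sums also stood apart in the tumour. The summed scaled level of 3 tested luteal markers was 784 units in the tumour, against 9316 to 17870 in the other 8 conditions. Ptgfr and Bhmt were under the detection limit in the tumour. Bhmt was also under it in the luteomas, with a geometric mean of 293 units. Ptgfr, at 7675 to 15874 units outside the tumour, made up most of the sum. Of the 3, 1 passed limma's threshold, Ptgfr, and Vegfa, at 566 units, lay within its range of 526 to 1309 elsewhere. That of 6 theca and interstitial markers was 17974 units, against 25454 to 64736. Of these 6, 0 passed limma's threshold, and Hsd3b1 alone ranged from 1664 to 39329 units outside the tumour. That of 7 granulosa cell markers was 57571 units, against 22669 to 42270, although 2 of the 7, Amh and Wt1, were lower and 1, Hsd17b1, was higher by limma.

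The sum of 4 oocyte markers was 1526 units in the tumour, against 2441 to 8322, with Zp1, Zp2 and Zp3 under the limit and 0 of 4 past limma's threshold. That of 9 epithelium and oviduct markers was 3825 units, against 13641 to 32598, and 4 of the 9 were lower by limma. The sums of 5 adipocyte and 4 red cell markers lay within the range of the other conditions, with the adipocyte markers Adipoq, Fabp4 and Car3 under the limit in the tumour and 0 of 5 and 0 of 4 past limma's threshold. In the luteomas the geometric means of Zp1 (184 units), Zp3 (374) and Car3 (303) were under the limit of their chip as well. Of 5 adrenal cortex markers 1 was on the chips and 0 were tested. The part of these markers' cell types in the Star result was not tested.

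Marker sums of some cell types also differed from wild type in the ovaries where Star read lower and Cyp11a1 and Scarb1 higher relative to CreX. The summed level of the 9 epithelium and oviduct markers was 18419 units in the CF-1 cystic, 17075 in the hybrid cystic and 13641 in the hybrid luteoma ovary, against 21876 to 32598 in the wild types. That of the 5 adipocyte markers was 4222, 4543 and 4829 units in the same order, against 4866 to 11330. That of the 4 red cell markers was 45124, 81305 and 23043 units, against 26605 to 30919. The theca and interstitial sum was 53614, 31921 and 25454 units, against 30190 to 52122. For the granulosa markers it was 31767, 42270 and 22669 units, against 35081 to 39230. The luteal sum, at 13563, 9415 and 12537 units, lay within the wild-type range of 9316 to 17870, and the oocyte sum also lay within its range. For the cystic and the luteoma class against wild type, 0 of 9 epithelial and 0 of 5 adipocyte markers passed limma's threshold. In the luteomas limma called Inhbb, an inhibin and activin subunit of granulosa cells, lower, with a log2 difference of -2.38 (adjusted p = 0.0323) and Alas2, of red cell heme synthesis, higher by 2.25 (adjusted p = 0.0410). Alas2 was also called higher in the cystic class, as 1 of the 4 red cell markers. Their part in the member values was not tested.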

How the data were processed

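The deposited values are linear intensities, 1 per probe set and array, and 13.6% to 30.1% of them per array lie below 0. The software and scaling behind the authors' intensity values are not given in the sources used here. Titles, source names and descriptions gave the groups. The chip B tumour array has differing ages in its title and description, and the title was used; that chip holds no member. Genes were named from the platform annotation, updated through RefSeq (GRCm38.p6). Of the 4 member probe sets, 3 have names ending in _s_at, which can match more than 1 transcript.

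Arrays of a chip type were brought to 1 trimmed mean (2nd to 98th percentile), values under a floor (183.8 units on chip A, 290.7 on chip B) were set to it, and log2 was taken. Probe sets reaching the detection limit, 2 floors, on 2 arrays or more were tested. Control and shared probe sets (76) were left out. Fits used limma 3.58.1 in R 4.3.3, with 4 residual degrees of freedom for genotype and 5 for pathology, and Benjamini-Hochberg adjustment over both chip types; the fits were tested on simulated data. As conditions are single arrays, p-values measure spread between conditions. The number of arrays limits the precision. Named genes were the members, the 5 most correlated genes of each, and list genes past the threshold or with the largest differences. The members, lists and tests were chosen with earlier results of these data known. Alternatives changed the scaling, floor, filter, variance model, terms and arrays included.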

Additional observations from a re-analysis of the deposited data

Results flagged for a closer look

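Star in the granulosa cell tumour stood apart from the other 3 untreated transgenic ovaries. The gap from the tumour to its nearest neighbour took 0.919 of the whole range of the 4 log2 levels, past Dixon's critical value. For repeat readings of 1 condition, chance alone would pass that value in about 1 in 20 groups. These 4 ovaries differ in strain, age and pathology, and Star was known to be low beforehand, so that rate does not apply here.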

How the results depend on the processing

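With single arrays per condition, bright members differ between non-tumour ovaries by amounts that depend on scaling. The fall of Star in the tumour passed limma's threshold in every alternative run. No analysis paired by replicate number was possible, since the labels give none. Genotype with the strain-by-age pair as a block changed no member's call. The mean over probe sets of a gene was not run, since each member has 1. Using no scaling, scaling to the CreX controls, the interactions and the 2-fold rule were chosen after seeing the data, and causes of the changes below were not tested.

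For genotype, Cyp11a1 was -0.10 with quantile normalization, -0.15 without scaling and -0.037 with CreX scaling, and -0.12 to 0.39 leaving out each array; Fdx1 ran between -0.29 and 0.28 and Star between -2.48 and -0.15, the last without the tumour. For luteoma against wild type, Star was -0.15 with quantile normalization, -0.10 without scaling, -0.082 with CreX scaling and -0.36 to 0.51 leaving out arrays; Fdx1 was -0.0041 with quantile normalization and -0.053 to 0.79; Scarb1 was -0.025 without scaling, -0.0027 with CreX scaling and -0.062 to 0.37. Leaving out arrays, Scarb1 in the tumour against wild type ran between -0.36 and 0.034, and Star in cystic ovaries between -0.24 and 0.17. Cyp11a1 in the tumour against luteoma was -1.29 (limma adjusted p = 0.0461) with quantile normalization.

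Without scaling the median log2 difference over all probe sets was -0.16 for genotype, -0.11 for luteoma and -0.28 for cystic ovaries against wild type, and with CreX scaling -0.07, -0.11 and -0.26. Probe sets past limma's threshold for genotype were 8 with trend and robust variances, 33 without scaling, 10 with CreX scaling and 0 to 7 leaving out arrays. For tumour against wild type they were 153 with a floor of 20, 200 without the filter, 156 with trend and robust variances, 18 with strain and age, and 37 to 268 leaving out arrays, against 96. For tumour against luteoma they were 204 without the filter, 189 with trend and robust variances, 60 with strain and age, 67 without scaling, 60 with CreX scaling and 57 to 165, against 119. For luteoma against wild type they were 2 with a floor of 20, 4 without the filter, 0 with strain and age, 4 without scaling, 1 with CreX scaling and 0 to 41, against 7. For cystic against wild type they were 1 with a doubled floor, 1 with a floor of 20, 2 without the filter, 0 with strain and age, 1 without scaling, 9 with CreX scaling and 0 to 13, against 4.

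In the single-array comparisons, the hybrid cystic ovary gave Star -0.50 without scaling, -0.29 with CreX scaling and -0.31 with quantile normalization, Cyp11a1 0.10, 0.31 and 0.18, Fdx1 0.11 without scaling and 0.23 with quantile normalization, and Scarb1 0.39 without scaling. The tumour gave Star -5.68 with a doubled floor, -6.24 without scaling and -6.00 with quantile normalization. The hybrid luteoma gave Star -0.49 and Cyp11a1 0.19 without scaling, Cyp11a1 0.42 with CreX scaling and 0.42 with quantile normalization, and Fdx1 -0.21 and Scarb1 0.35 without scaling.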
